A study of Mus musculus with 9 samples.

Results

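The 8 genes described here control how mouse embryonic stem cells sense, take up and export sterols. They were chosen by name for these roles, matched from the gene identifiers of the count tables to symbols, and all 8 of 8 were found among 48440 genes. Srebf2, Scap, Insig1 and Insig2 make up the sensing machinery, Stard4, Npc1 and Mylip belong to sterol uptake and intracellular transport, and Abca1 exports sterol from the cell. The choice used roles, not measured values, although it was made with earlier results of these data known.

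The cells were J1 mouse embryonic stem cells of the genotype Suz12-AID, in which Suz12, a core subunit of the Polycomb complex PRC2, is fused to a degron (AID) through which auxin triggers destruction of the protein. All 9 libraries carried this genotype and were grown with serum, LIF and inhibitors of MEK and GSK3 (2i). The 3 Mock libraries were the control, the 3 Auxin libraries came from cells given 50 µM auxin (indole-3-acetic acid) for 96 h, and the 3 Re-introduction libraries came from cells in which auxin was then washed out for 4.5 h. Polyadenylated RNA was sequenced as paired reads, and counts of 44341283 to 113931419 per library were assigned to genes. The labels call the RNA triplicate without saying whether cultures were separate, so p-values measure the spread between these samples, which may be technical. No group given auxin without the degron was used here, so an effect of auxin itself and an effect of Suz12 loss cannot be told apart.

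As background, cells read the sterol content of the endoplasmic reticulum through Scap, which escorts the transcription factor SREBP2 (encoded by Srebf2) to the Golgi when sterol is low. There SREBP2 is cut free and switches on genes of cholesterol synthesis and lipoprotein uptake. Insig1 and Insig2 hold Scap back when sterol is high, and Insig1 is itself a well-known SREBP target. When oxysterols accumulate, LXR nuclear receptors switch on export genes such as Abca1, and Mylip, a ubiquitin ligase that marks lipoprotein receptors for degradation.

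The promoters of 3 of these genes are shown because they represent the genes that moved apart: Insig1 and Srebf2 from the sensing side, and Abca1 from the export side. Each is the 250 bases before the RefSeq start, in GRCm38.p6, written 5′ to 3′ along the gene. Capitals mark matches on either strand to ATCACCCCA (an element of the sterol regulatory type), to CCAAT (the NF-Y box, read as ATTGG on the other strand) or to AGGTCA (the nuclear receptor half-site).
Insig1 (chr5:28071162-28071411, plus strand): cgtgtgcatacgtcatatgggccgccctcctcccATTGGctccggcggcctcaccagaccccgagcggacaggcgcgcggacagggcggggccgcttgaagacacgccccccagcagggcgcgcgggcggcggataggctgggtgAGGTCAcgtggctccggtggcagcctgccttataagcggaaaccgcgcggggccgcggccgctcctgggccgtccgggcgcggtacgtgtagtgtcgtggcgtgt
Srebf2 (chr15:82147019-82147268, plus strand): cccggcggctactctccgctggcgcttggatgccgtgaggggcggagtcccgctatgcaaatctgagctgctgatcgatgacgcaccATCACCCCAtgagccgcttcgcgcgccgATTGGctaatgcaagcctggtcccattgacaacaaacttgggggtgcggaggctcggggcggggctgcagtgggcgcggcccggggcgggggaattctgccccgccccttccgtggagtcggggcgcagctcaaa
Abca1 (chr4:53159896-53160145, minus strand): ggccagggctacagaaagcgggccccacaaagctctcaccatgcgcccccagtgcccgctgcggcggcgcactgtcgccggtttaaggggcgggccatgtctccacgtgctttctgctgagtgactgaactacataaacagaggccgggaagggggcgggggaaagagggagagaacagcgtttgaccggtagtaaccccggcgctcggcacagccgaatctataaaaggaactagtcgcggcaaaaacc
Promoters of 6 of the 8 genes were searched, and those of Stard4 and Npc1 are not reported here. The Srebf2 promoter held 1 match to ATCACCCCA, a motif added after the sequences were seen, 163 to 155 bases before the start. It also held 1 CCAAT match 135 to 131 bases before the start. In the Insig1 promoter 1 CCAAT match lay 216 to 212 bases, and 1 AGGTCA match 105 to 100 bases, before the start. The Abca1 window held no exact match to the motifs searched. Of the promoters not printed, that of Mylip held 3 CCAAT matches and 1 Insig2 window held 3, and both genes rose with auxin. The other Insig2 windows and those of Scap held no match. Variants that differ from these letters were not searched, so an element with a changed half-site would be missed. Among 32851 promoters of this length, 0.240% held ATCACCCCA, 33.8% held CCAAT and 14.02% held AGGTCA. TCACNCCAC was also searched and was in 1.05% of promoters, and a direct repeat of AGGTCA spaced by 4 bases was in 0.0152%. Neither was found in the 6 genes' windows. The motifs do not overlap one another in these windows, and a match is a description of the letters only.

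All 8 embryonic stem cell markers stood above 1 CPM (read counts normalised to library size, with TMM scaling) in each group. Their sum was 5541 to 5666 CPM in Mock, 6781 to 7285 CPM with auxin and 5309 to 5407 CPM in Re-introduction. The sum covers opposite moves. Pou5f1 averaged 843, 583 and 578 CPM and Dppa5a 411, 184 and 247 CPM in these groups. Sox2, Nanog, Zfp42, Esrrb, Tfcp2l1 and Klf4 had higher means with auxin than in Mock. Markers of other cell types were low but shifted: the summed level of 12 endoderm markers was 17.1 to 18.6 CPM in Mock, 45.1 to 49.3 CPM with auxin and 34.7 to 37.8 CPM in Re-introduction, with Ttr at 0 throughout and Lrp2, itself a lipoprotein receptor, the highest. The 8 trophoblast markers summed to 50.7 to 55.0, 59.3 to 67.8 and 130 to 132 CPM in the same order, mostly Eomes, Krt8 and Krt18. Eomes averaged 35.4, 25.6 and 66.9 CPM, Krt8 11.9, 22.8 and 40.9 CPM, and Cdx2 1.70, 0.08 and 0.78 CPM. The 8 fibroblast markers summed to 21.99 to 24.6, 44.2 to 53.5 and 41.0 to 42.3 CPM, mostly Thy1, with Col3a1, Lum and Dcn at 0 in Auxin. The 5 neural markers, led by Tubb3, summed to 113 to 123, 81.7 to 98.03 and 80.6 to 83.2 CPM, and 5 mesoderm markers to 12.4 to 13.6, 2.39 to 2.96 and 3.83 to 4.78 CPM. Mitochondrial transcripts took 3.79 to 3.999% of counts in Mock and Auxin and 4.58 to 4.80% in Re-introduction. The part of these shifts in the results was not tested, and in bulk RNA fewer cells of a type and less RNA per cell cannot be told apart. Suz12 mRNA, which the degron does not target, averaged 133 CPM in Mock, 141 CPM with auxin and 168 CPM in Re-introduction.

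A further measure moved with the groups. The log2 expression of each gene was taken relative to its own mean over all libraries. The measure was the slope of this value per doubling of exon length. It was -0.25 to -0.17 in Mock, 0.01 to 0.15 in Auxin and 0.08 to 0.10 in Re-introduction, with Auxin replicate 2 the lowest of its group at 0.01. The slopes place each library against the mean of all libraries. They do not say whether long genes stood above or below short ones within a library. Npc1 (10725 bp of exon) and Abca1 (10363 bp) are in the longest of 10 equal classes of genes by exon length, whose median log2 fold change was 0.59 in Auxin against Mock and 0.59 in Re-introduction against Mock. Values with this trend removed are given beside the genes where they change a call or move a value by over 1.5 times.

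After 96 h of auxin, the sensing genes Insig1 and Srebf2 and the sterol carrier Stard4 fell, while the exporter Abca1, the receptor-degrading ligase Mylip, Npc1 and Insig2 rose. Insig1 fell 4.74-fold and Abca1 rose 7.55-fold. In Auxin against Mock, 7 of the 8 genes passed the test (edgeR's quasi-likelihood test, Benjamini-Hochberg adjusted p under 0.05 over 20838 genes), where 73.2% of all genes tested did. There were 4 higher and 3 lower among them, against 38.4% and 34.8% of all genes, and 3 of the 8 also changed at least 2-fold, against 31.8%. A call is thus common in this comparison, and the size and direction of each change carry more than the count.

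**Figure D1:**
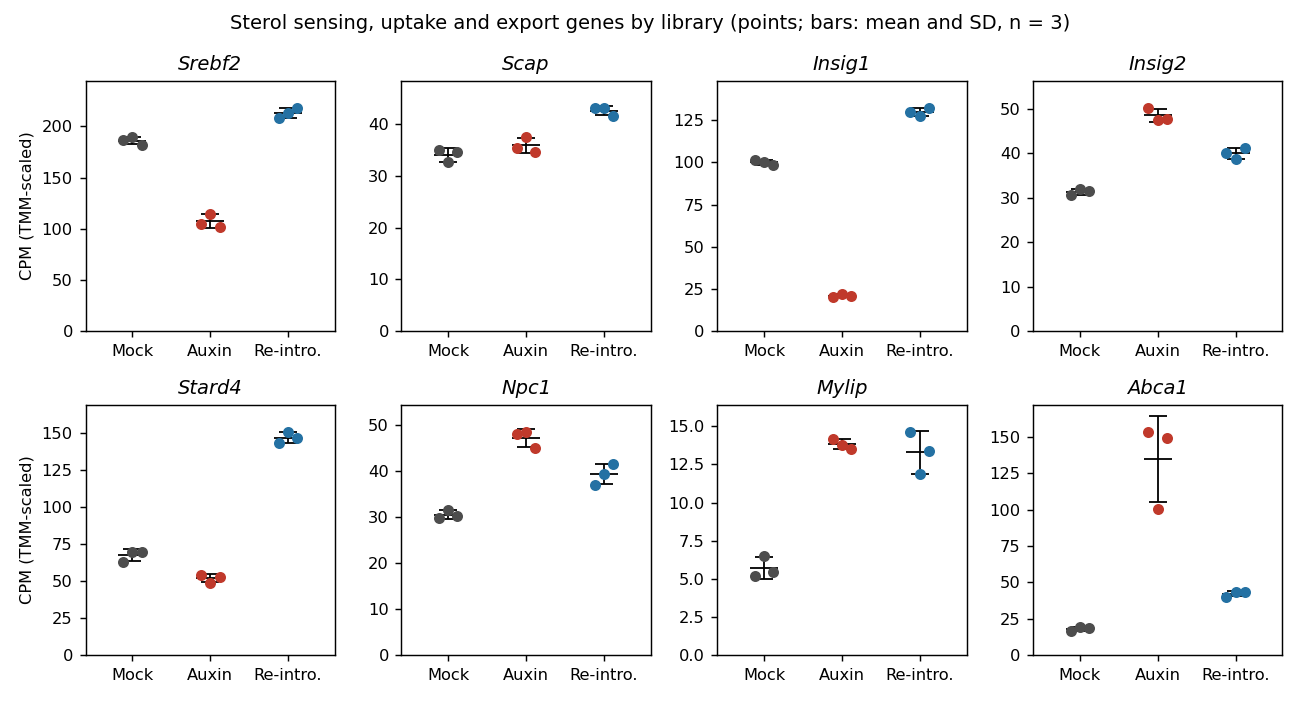
Level of each of the 8 genes in each of the 9 libraries, as TMM-scaled CPM on linear axes from 0, with points for libraries and bars for the group mean and SD (n = 3). Insig1 and Srebf2 are lowest in Auxin, Abca1 is highest in Auxin, and the Auxin libraries of Abca1 spread most, from 100 to 154 CPM.

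Within the sensing machinery, Insig1, which retains Scap in the endoplasmic reticulum, stood at 101, 100 and 98.5 CPM in the 3 Mock libraries, at 20.5, 22.3 and 20.6 CPM with auxin, and at 130, 128 and 132 CPM in Re-introduction. Every Auxin library was far below every Mock library, and every Re-introduction library was above both. The log2 fold change was -2.24 ± 0.05 (SE, n = 3 per group) in Auxin against Mock, with an edgeR adjusted p of 1.17e-10. From Auxin to Re-introduction it was 2.62 ± 0.05 (edgeR adjusted p = 1.61e-10). Re-introduction ended 0.38 ± 0.05 above Mock on the log2 scale (edgeR adjusted p = 4.61e-05).

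Srebf2, which encodes the SREBP2 factor, followed with a smaller amplitude. Its level was 187, 189 and 182 CPM in Mock, 105, 115 and 102 CPM with auxin, and 208, 213 and 218 CPM in Re-introduction, with no overlap between groups. It fell by 0.80 ± 0.06 on the log2 scale (SE) with auxin and rose by 0.99 ± 0.06 after washout (edgeR adjusted p = 1.68e-07 and 1.40e-07). The excess over Mock, 0.20 ± 0.06, passed the test with an edgeR adjusted p of 0.00795. That small excess was 0.04 with the length trend removed (adjusted p = 0.513) and 0.16 without Mock replicate 3 (adjusted p = 0.055), so its call was lost in both, and it was 0.33 when libraries were scaled by total counts.

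Scap, the sterol sensor and escort of SREBP2, was at 34.95, 32.6 and 34.5 CPM in Mock and 35.4, 37.5 and 34.6 CPM in Auxin. These groups overlapped, and the log2 fold change of 0.07 ± 0.05 did not pass the test (edgeR adjusted p = 0.232). The Re-introduction libraries, at 43.0, 43.1 and 41.5 CPM, were all above both. Scap rose by 0.25 ± 0.05 against Auxin and by 0.32 ± 0.05 against Mock (edgeR adjusted p = 0.00290 and 0.000297). Its Auxin value depended on the scaling: it was 0.29 and called with total counts, 0.14 and called when at least 1 CPM in 3 libraries was required, and -0.27 and called as lower with the length trend removed. Against Mock the Re-introduction value became -0.03 with that trend removed. Unstranded counting of reads also leaves 985 bp of Scap exon shared with 5830462I19Rik, which itself received only 5 to 17 counts.

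Insig2, the paralog that holds Scap back without the same tie to SREBP, moved opposite to Insig1. It read 30.6, 31.9 and 31.4 CPM in Mock, 50.2, 47.5 and 47.8 CPM with auxin, and 40.1, 38.7 and 41.2 CPM in Re-introduction. The 3 groups did not overlap, and Re-introduction lay between the others. On the log2 scale it rose by 0.63 ± 0.05 with auxin and fell by 0.28 ± 0.05 after washout (edgeR adjusted p = 5.95e-07 and 0.000929). It remained 0.35 ± 0.05 above Mock (edgeR adjusted p = 9.96e-05).

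On the transport side, Stard4, a soluble protein that carries cholesterol between membranes, measured 62.5, 69.8 and 69.3 CPM in Mock, 54.1, 48.7 and 52.3 CPM with auxin, and 143, 151 and 146 CPM in Re-introduction. All Auxin libraries were below all Mock libraries, and all Re-introduction libraries were more than 2-fold above both. It fell by 0.38 ± 0.06 with auxin and rose by 1.504 ± 0.06 after washout (edgeR adjusted p = 0.000165 and 1.44e-08). Against Mock the rise was 1.13 ± 0.06, or 2.18-fold (edgeR adjusted p = 6.66e-08). The fall with auxin kept its call but varied in size, from -0.17 with total-count scaling to -0.66 with the length trend removed.

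Npc1, the lysosomal membrane protein through which lipoprotein-derived cholesterol leaves the lysosome, was at 29.8, 31.6 and 30.1 CPM in Mock, 48.0, 48.5 and 44.9 CPM with auxin, and 37.0, 39.4 and 41.4 CPM in Re-introduction. The groups did not overlap, in the same order as for Insig2. The log2 fold changes were 0.63 ± 0.06 with auxin and -0.26 ± 0.06 after washout (edgeR adjusted p = 2.20e-06 and 0.00345). In Re-introduction it stood 0.37 ± 0.06 above Mock (edgeR adjusted p = 0.000243). The rise with auxin nearly equals the 0.59 median of genes of its length, and with the length trend removed it was 0.10 with no call (adjusted p = 0.302). Against Mock the Re-introduction value turned to -0.19 under the same removal (adjusted p = 0.0559), and with length and GC trends removed it was -0.19 and called lower (adjusted p = 0.0379). Npc1 also shares 192 bp of exon with Rmc1 on the other strand and 90 bp with Gm15956.

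Mylip was the least abundant of the 8 by count, with 5.18, 6.49 and 5.41 CPM in Mock, 14.2, 13.7 and 13.5 CPM with auxin, and 14.7, 11.8 and 13.4 CPM in Re-introduction. Its Auxin and Re-introduction libraries overlapped, and both groups were above every Mock library. The rise with auxin was 1.28 ± 0.10 (edgeR adjusted p = 4.29e-07) and that of Re-introduction against Mock was 1.23 ± 0.10 (edgeR adjusted p = 1.25e-06). Between Auxin and Re-introduction the log2 fold change was -0.05 ± 0.10 and did not pass the test (edgeR adjusted p = 0.684).

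The exporter Abca1, which moves cholesterol onto lipid-poor apolipoproteins, had 16.3, 19.0 and 18.2 CPM in Mock, 154, 100 and 150 CPM with auxin, and 40.1, 43.4 and 43.2 CPM in Re-introduction. The 3 groups did not overlap, and Auxin replicate 2 was the lowest of its group. On the log2 scale the rise with auxin was 2.92 ± 0.14 and the change after washout was -1.67 ± 0.14 (edgeR adjusted p = 1.18e-08 and 2.42e-06). Re-introduction remained 1.24 ± 0.14, or 2.37-fold, above Mock (edgeR adjusted p = 1.32e-05). With the length trend removed the last value was 0.71 and stayed called. Without Auxin replicate 2 the rise with auxin was 3.08.

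**Figure D2:**
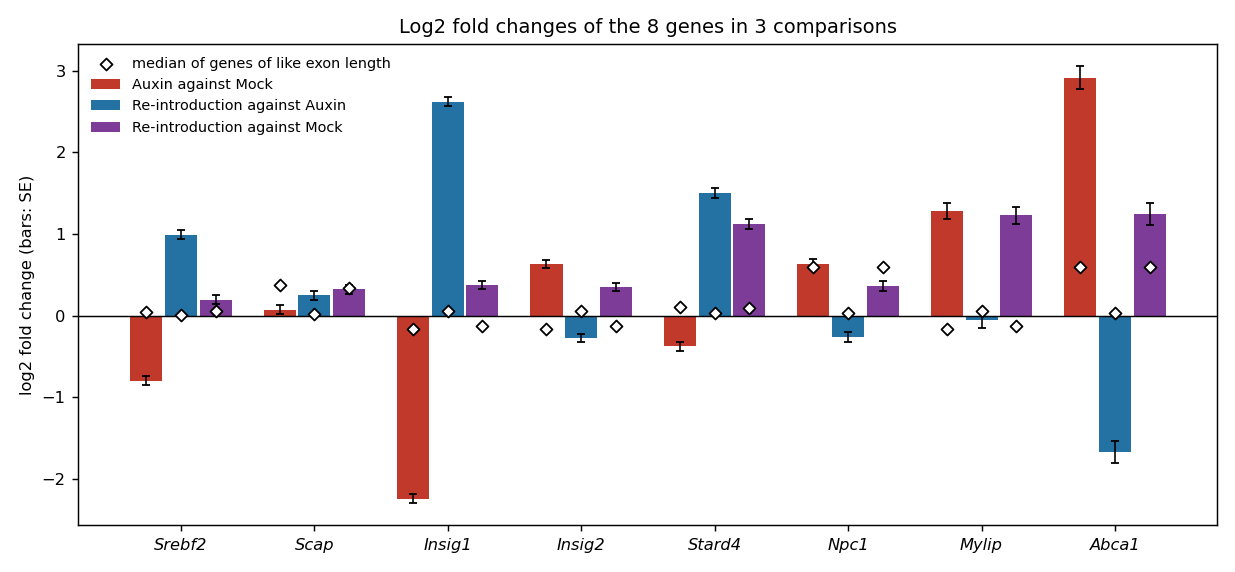
Log2 fold changes of the 8 genes in the 3 comparisons (bars, with SE), with the median log2 fold change of genes in the same of 10 classes of exon length (open diamonds). Insig1, Srebf2 and Stard4 are negative in Auxin against Mock and Abca1, Mylip, Npc1 and Insig2 positive, and the Npc1 bar of 0.63 reaches its diamond at 0.59.

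After the 4.5 h washout the changes were mostly in the opposite direction. The labels do not say whether the Mock and Auxin cells had a change of medium at the time of the washout, so a change of medium and the return of Suz12 cannot be told apart. In Re-introduction against Auxin, 7 of the 8 genes passed the test, against 50.9% of all genes. Srebf2, Scap, Insig1 and Stard4 were the 4 higher, where 25.5% of all genes were, and Insig2, Npc1 and Abca1 the 3 lower, also against 25.5%. At least 2-fold changes were called for 3 of the 8, Insig1, Stard4 and Abca1, against 11% of all genes. As grouped here, uptake and export did not divide the 8 genes cleanly. Npc1 and Mylip, placed in the uptake group, rose with Abca1 under auxin, and Stard4 alone of that group moved with Insig1 and Srebf2. Mylip, however, marks lipoprotein receptors for degradation and so acts against uptake. The rise of Npc1 lost its call with the length trend removed. In the wider lists below, without length correction, 15 of 20 uptake and transport genes rose with auxin and 3 fell. Of 15 LXR and export genes tested, 10 rose and 4 fell, against 38.4% and 34.8% of all genes. After washout 6 rose and 10 fell in the first list, and 3 rose and 8 fell in the second. Whether uptake and export moved together or oppositely was not tested.

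Against Mock, all 8 genes were higher in Re-introduction and 0 were lower, where 34.7% and 33.4% of all genes were called higher and lower and 68.1% in either direction. Stard4, Mylip and Abca1 were the 3 past 2-fold, against 22.4% of all genes. With the length trend removed the count was 5, all higher, since Srebf2, Scap and Npc1 lost their call. With length and GC trends both removed, Npc1 was called lower. The 3 comparisons share libraries in pairs, so they are not independent of one another.

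How far the 7 genes called in Auxin against Mock had returned can be read by placing the Re-introduction libraries on the log2 path from the Auxin mean (0%) to the Mock mean (100%). Insig1 had passed Mock at 117% (libraries 116 to 118%), Srebf2 at 125% (121 to 129%) and Stard4, whose fall was small, at 399% (390 to 409%). These ranges cover the Re-introduction libraries only, with the Auxin and Mock means held fixed, and so leave out the spread of those 2 groups. The Stard4 percentage divides by a fall that was -0.17 with total-count scaling and -0.66 with the length trend removed, so its size is uncertain. Abca1 was at 56.9% (55.6 to 59.5%), Insig2 at 44.1% (37.2 to 51.8%) and Npc1 at 42.0% (29.5 to 55.6%). Mylip was at 4.78% (-6.66 to 17.3%). On this scale, with no length correction, the 3 genes that had fallen were beyond their Mock level and the 4 that had risen were short of it. The places of Srebf2 and Npc1 rest on differences that lost their call or turned with the length trend removed, as given with each gene. Scap is left out because it was not called in Auxin against Mock.

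Ratios between genes of the same library do not depend on how libraries are scaled, but they do depend on a trend over exon length where the genes differ in length. The log2 ratio of Insig1 to Insig2 counts was 1.73, 1.65 and 1.65 in the Mock libraries, -1.29, -1.09 and -1.22 with auxin, and 1.70, 1.72 and 1.68 in Re-introduction. Insig1 was the more abundant of the pair in counts in Mock and Re-introduction, and Insig2 in Auxin. The ratio differed by -2.87 in Auxin against Mock and by 0.03 in Re-introduction against Mock, the latter with overlapping libraries (exact permutation test, two-sided p = 0.4). The latter was 0.07 with the length trend removed and 0.14 with length and GC trends removed. Stard4 to Abca1 differed by -3.27 with auxin and by -0.12 in Re-introduction against Mock, and the latter turned to 0.21 with the length trend removed, an alternative for ratios added after the data were seen. Insig1 to Abca1 had the widest swing, from 2.40 to 2.64 in Mock to -2.91 to -2.17 in Auxin and 1.56 to 1.70 in Re-introduction. Re-introduction against Mock differed by -0.87 in this ratio, and by -0.29 with the length trend removed. For Npc1 to Abca1, 2 genes of nearly equal length, the differences were -2.26 with auxin, 1.38 after washout and -0.88 against Mock. Apart from Insig1 to Insig2 in Re-introduction against Mock, each of the 12 exact permutation tests gave p = 0.1, the smallest that 3 against 3 libraries allow (adjusted p = 0.109), so no ratio could pass 0.05.

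**Figure D3:**
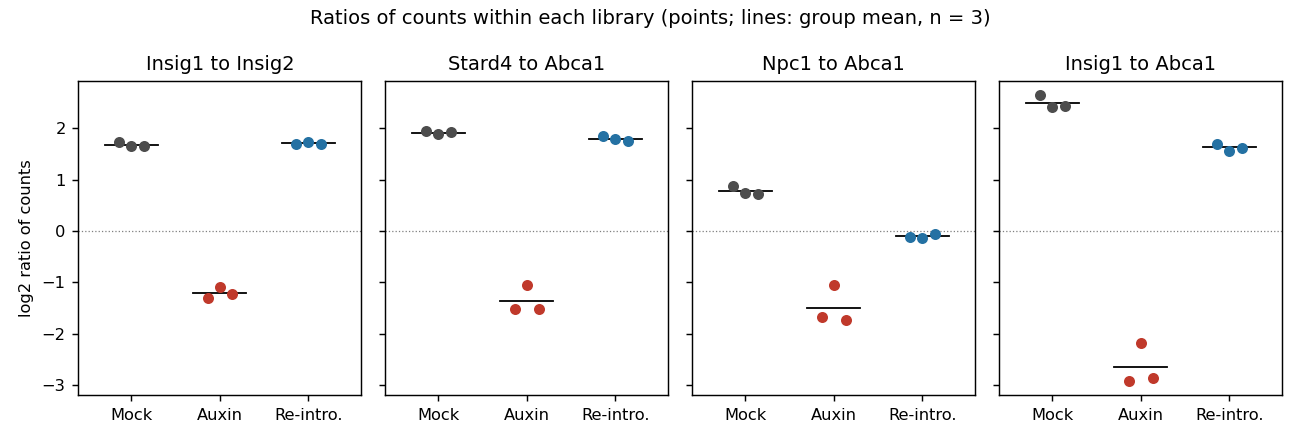
Log2 ratio of counts of 2 genes in each library (points) with the group mean (line, n = 3). Auxin libraries are below 0 in all 4 ratios, and Re-introduction libraries lie within the Mock range for Insig1 to Insig2, without correction for exon length.

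Levels between genes were compared per exon length, as RPKM (TMM-scaled CPM per kilobase of exon). In Mock the order was Srebf2 at 37.3 ± 0.7 (SD, n = 3), Insig1 at 32.3 ± 0.5, Stard4 at 12.03 ± 0.7, Insig2 at 9.02 ± 0.19, Scap at 4.57 ± 0.17, Npc1 at 2.84 ± 0.09, then Mylip at 1.86 ± 0.23 and Abca1 at 1.72 ± 0.13, whose libraries overlapped. Under auxin Insig1 dropped to the fifth place at 6.83 ± 0.33 RPKM. Srebf2 still led at 21.5 ± 1.4, followed by Insig2 at 13.97 ± 0.4 and Abca1 at 13.0 ± 2.9, which overlapped, and by Stard4 at 9.26 ± 0.49. Scap at 4.81 ± 0.20, Mylip at 4.51 ± 0.10 and Npc1 at 4.395 ± 0.18 came last in Auxin, with Mylip and Npc1 overlapping. After washout Srebf2 at 42.7 ± 1.0 and Insig1 at 42.1 ± 0.7 overlapped at the top, ahead of Stard4 at 26.3 ± 0.7, Insig2 at 11.5 ± 0.4 and Scap at 5.72 ± 0.12. The lowest in that group were Mylip at 4.34 ± 0.46 and Abca1 at 4.08 ± 0.18, which overlapped, and Npc1 at 3.66 ± 0.21.

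The genes around these 8 were followed in 5 lists, described by counts and medians. Of all genes tested, 38.4% rose and 34.8% fell with auxin, 25.5% rose and 25.5% fell after washout, and 34.7% were higher and 33.4% lower in Re-introduction against Mock. Among 20 cholesterol synthesis enzymes, the best-known SREBP2 targets, 20 fell with auxin (median log2 fold change -1.18, against 0.05 for all genes tested) and 20 rose after washout (median 1.52, against 0.003). Against Mock 11 were higher and 5 lower in Re-introduction (median 0.40, against 0.03 for all genes), where 68.1% of all genes were called. Idi1, the isomerase that makes dimethylallyl diphosphate, fell by 2.46 ± 0.05 and then rose by 2.90 ± 0.05, and Dhcr7, a reductase of the last steps, fell by 2.15 ± 0.07. After washout Hmgcs1, the HMG-CoA synthase, rose by 2.53 ± 0.05 and Lss, the lanosterol synthase, by 1.51 ± 0.05 against Auxin. Hmgcs1 ended 1.18 ± 0.05, Hsd17b7 1.10 ± 0.06 and Msmo1 0.91 ± 0.06 above Mock. These enzymes moved in the direction of Insig1 in the auxin and washout comparisons.

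The 12 genes of SREBP processing and Insig turnover split in both directions. With auxin 6 rose and 5 fell, after washout 4 rose and 3 fell, and against Mock 5 were higher and 4 lower, with medians of 0.13, -0.08 and 0.005. The 7 of 12 called after washout are near the 50.9% of all genes, and 11 were called without Auxin replicate 2. Rnf145, a sterol-responsive ligase, and Srebf1, the paralog of Srebf2, fell by 1.04 ± 0.05 and 1.11 ± 0.05 with auxin and rose by 0.81 ± 0.05 and 0.75 ± 0.05 after washout. Srebf1 stayed below Mock at -0.36 ± 0.05, and the ligase Rnf139 was above it at 0.41 ± 0.05.

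Of 20 genes of lipoprotein uptake and intracellular sterol transport, 15 rose and 3 fell with auxin (median 0.74). After washout 6 rose and 10 fell (median -0.24), and against Mock 13 were higher and 2 lower (median 0.61). The 18 of 20 called with auxin stand beside 73.2% of all genes, and the 15 of 20 called against Mock beside 68.1%. Vldlr, the very-low-density lipoprotein receptor, went from a Mock mean of 0.249 CPM to 56.3 CPM with auxin and 1.68 CPM in Re-introduction, log2 fold changes of 7.83 ± 0.18 and -5.05 ± 0.15. Stard5, a sterol carrier related to Stard4, rose by 1.70 ± 0.07 with auxin. Lrp8, another lipoprotein receptor and 1 of the 3 genes that fell, was lower by 0.70 ± 0.10 with auxin. It rose by 2.46 ± 0.10 after washout, to 1.77 ± 0.10 above Mock. The lysosomal lipase Lipa ended 1.52 ± 0.08 above Mock.

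LXR receptors, LXR targets and export genes gave 15 tested of 17, of which 10 rose and 4 fell with auxin (median 0.63). After washout 3 rose and 8 fell (median -0.31), and against Mock 8 were higher and 4 lower (median 0.31). The 14 of 15 called with auxin stand beside 73.2% of all genes, the 11 of 15 after washout beside 50.9% and the 12 of 15 against Mock beside 68.1%. The phospholipid enzyme Lpcat3 rose by 1.11 ± 0.06, Smpdl3a by 3.20 ± 0.21 and the sterol exporter Abcg1 by 1.18 ± 0.08 with auxin. Smpdl3a was low throughout, with means of 0.227 CPM in Mock and 2.13 CPM with auxin. After washout Abcg1 fell by 1.00 ± 0.08 and the phospholipid transfer protein Pltp by 1.32 ± 0.07, while Scd1, a desaturase that SREBPs also switch on, rose by 0.83 ± 0.06. Lpcat3, Scd1 and Arl4c stood 0.77 ± 0.06, 0.63 ± 0.05 and 1.19 ± 0.11 above Mock.

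Sterol esterification and oxysterol synthesis had 8 of 9 genes tested, with 6 higher and 1 lower with auxin (median 1.35), 0 higher and 4 lower after washout (median -0.86), and 3 higher and 1 lower against Mock (median 0.34). The 4 of 8 called after washout are near the 50.9% of all genes, and the 4 of 8 called against Mock, 2 without Mock replicate 1, are below the 68.1%. The cholesterol acyltransferases Soat1 and Soat2 rose by 1.35 ± 0.05 and 4.18 ± 0.19 with auxin and fell by 0.69 ± 0.05 and 3.70 ± 0.19 after washout. Nceh1, a cholesteryl ester hydrolase, rose by 1.23 ± 0.08 and fell by 1.03 ± 0.08. Against Mock, Soat1 was higher by 0.66 ± 0.05, the oxysterol hydroxylase Cyp7b1 by 1.29 ± 0.10 and Nceh1 by 0.20 ± 0.08. Of the genes named from the lists, Srebf1, Stard5, Lpcat3, Pltp and Lss share exon sequence with another gene, so their unstranded counts are uncertain.

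**Figure D4:**
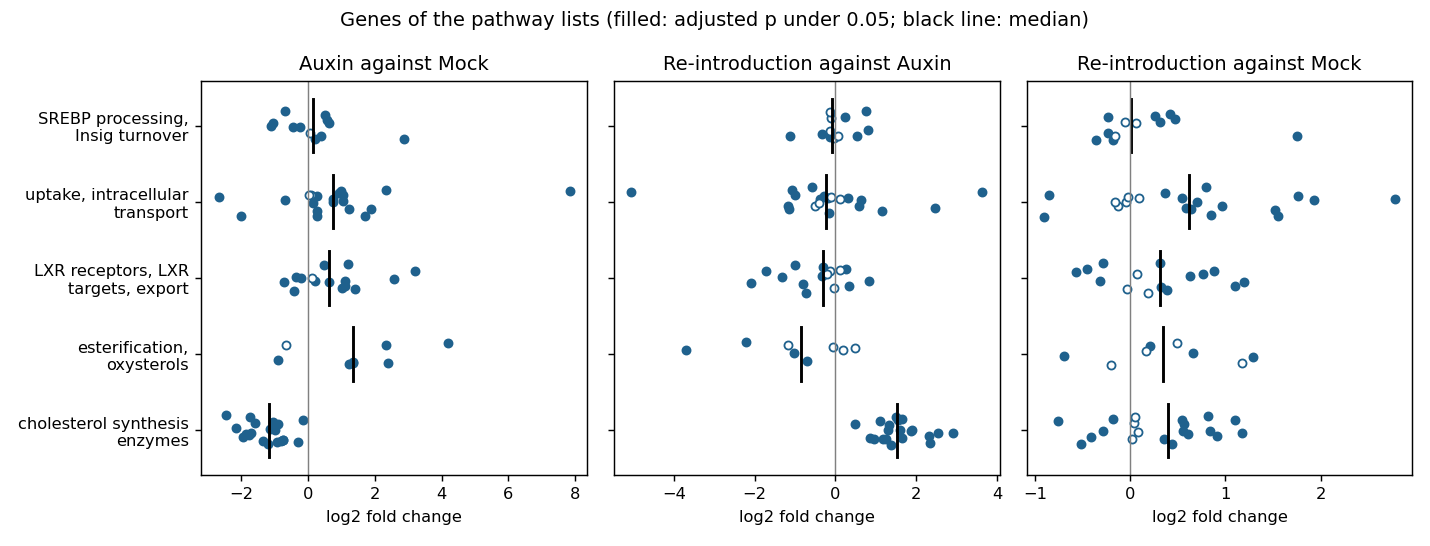
Log2 fold changes of the genes of the 5 lists in the 3 comparisons (filled points passed the adjusted p of 0.05, open points did not, black line is the median). All 20 synthesis enzymes lie below 0 in Auxin against Mock and above 0 in Re-introduction against Auxin, and the other lists hold genes on both sides of 0 in both.

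Patterns most like that of Insig1 over the 9 libraries, by the root mean square difference of centred log2 CPM among 15125 genes, belonged to the pseudogene Gm37784 (0.091), Serpinb9b (0.136), Idi1 (0.137), the pseudogene Gm6781 (0.148) and the desaturase Scd2 (0.151), where the median gene was at 1.18. For Abca1 they were BC067074 (0.176), Mst1 (0.198), Zswim8 (0.203), Il1rl2 (0.205) and Cdc14a (0.206), where the median gene was at 1.23. Scd2, Mst1 and Cdc14a share exon sequence with another gene, and pseudogene counts may hold reads of their parent genes.

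**Figure D5:**
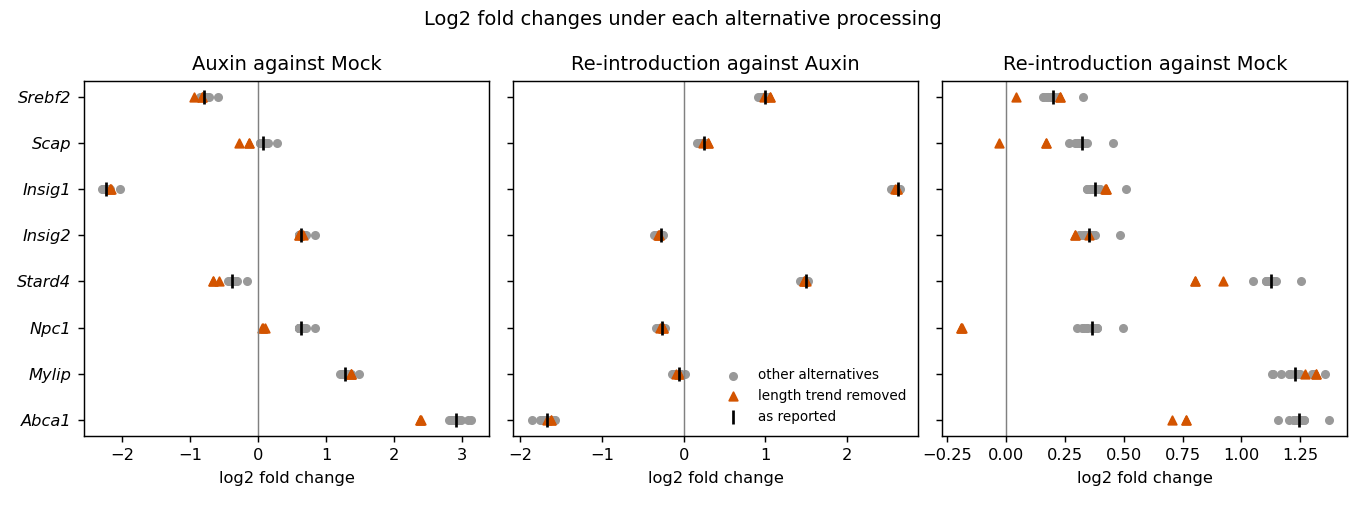
Log2 fold changes of the 8 genes as reported (black ticks), with the trend over exon length removed (triangles) and under the other alternatives, left-out libraries included (grey points). The triangles of Npc1 are near 0 in Auxin against Mock and at -0.19 in Re-introduction against Mock, while Insig1, Abca1 and Mylip stay on 1 side of 0 in Auxin against Mock.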

How the data were processed

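RNA-seq counts per gene from 9 libraries, 3 per group, were analysed. The authors deposited raw read counts per gene with exon length for 48440 genes. Per the submitters' processing notes, the tools were Trim Galore 0.6.10, FastQC 0.12.1, Bowtie2 2.5.3, SAMtools 1.20 and featureCounts 2.0.6, on mm10, and per the file headers featureCounts made the tables without strand and counting mates singly. Even counts exceeded odd ones in 9 of 9 libraries.

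Genes were filtered by edgeR's filterByExpr (20838 kept, all 8 members among them), scaled by TMM and fitted over the 3 groups with edgeR 4.0.16's quasi-likelihood test in R 4.3.3. Benjamini-Hochberg adjusted p under 0.05 was called. SE is the absolute log2 fold change divided by the root of F. Ratios used a pseudocount of 0.5. Alternatives used DESeq2 1.42.0, other scalings and filters, length and GC trends, a replicate block and left-out libraries. The code was tested on simulated data with 200 genes changed 2-fold. Over the 3 comparisons 71 to 77.5% of these were recovered, and 4.70 to 8.48% of calls were false. The changed genes were 200 of 20437 to 20473, a far smaller share than the 50.9 to 73.2% called in the data. These rates may therefore not hold for the calls reported here. The members and lists were chosen with earlier results of these data known. From each list the text names, in each comparison, the 3 called genes with the smallest p whose higher group averaged at least 1 CPM, and the 5 genes most like Insig1 and Abca1. Where genes share exons, reads cannot be assigned with certainty. Some genes that this rule selects are not reported here by name, though the counts and medians are of the whole lists.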

Additional observations from a re-analysis of the deposited data

How the results depend on the processing

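Under 11 alternatives and 9 left-out libraries, 18 of 24 log2 fold changes of the 8 genes kept their direction and side of the threshold throughout. Auxin against Mock gave 7 to 8 called members and Re-introduction against Auxin 7 in each. Re-introduction against Mock gave 5 with the length trend removed, and 7 to 8 with 1 library left out. Scap in Auxin against Mock was -0.27 with the length trend removed, -0.13 with length and GC trends removed, and -0.13 with the replicate block added to these. In Re-introduction against Mock, Scap was -0.031 with the length trend removed, and Npc1 was -0.19 under each of those 3 settings. Mylip in Re-introduction against Auxin ranged from -0.140 to 0.023 with 1 library left out, the positive value without Re-introduction replicate 2. The ratio of Stard4 to Abca1 in Re-introduction against Mock was 0.21 with the length trend removed and 0.038 with length and GC trends removed, both added for ratios after the data were seen. The length settings change only the offset for length or GC; otherwise the cause was not tested. Scaling by total counts moved the median of all genes from 0.05 to 0.26 in Auxin against Mock, and the share of calls that were higher from 52.4% to 63.2%, from 50.0% to 40.1% in Re-introduction against Auxin and from 50.9% to 59.9% in Re-introduction against Mock. Without Auxin replicate 2, or with length and GC trends removed, 11 of the SREBP processing genes were called after washout, against 7. Without Mock replicate 1, or with the length trend removed, 2 esterification genes were called against Mock, against 4.

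The replicate numbers did not pair the libraries: correlations of same-numbered deviations ran from -0.55 to 0.45, and 3 of 9 libraries correlated best with their own number. With the replicate block 7, 7 and 8 members were called, and 14808, 9829 and 13639 genes. Depth limited Mylip most: its lowest count was 387, in a Mock library, and both mates of a pair were counted.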
